A study of Mus musculus with 4 samples.

Results

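The enzyme families that chemically modify foreign and endogenous compounds were followed in whole embryonic mouse lung, namely the cytochrome P450s (Cyp genes), the glutathione S-transferases (Gst genes of the alpha, mu, omega, pi, theta and kappa classes) and the aldehyde dehydrogenases (Aldh genes). Members were taken by gene symbol from the array's annotation, as family letter codes followed by a subfamily and a gene number, which gave 119 of the 22690 probe sets and 89 of the 12393 genes read by a probe set with 1 symbol. They comprised 60 P450 genes, 16 GST genes and 13 ALDH genes. Left out of the set by its definition were 5 genes of these families (Cyp2f2, Gsta3, Aldh1a1, Aldh1a2 and Aldh1a7) and symbols without that form, such as Aldh2 and Cyp51.

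The titles place all 4 arrays at embryonic day 18, 2 from wild-type embryos and 2 from embryos with an Sftpc-Nmyc transgene. That transgene places mouse Nmyc1 cDNA (Mycn, a growth-promoting transcription factor of the MYC family) joined to green fluorescent protein under 3.7 kb of promoter and enhancer of human SFTPC, a promoter used to drive genes in distal lung epithelium. Transgenic embryos arose from eggs injected at the pronuclear stage, of F2 C57BL/6J and DBA/2J background. In all 4 such embryos were made, and the design text puts their collection at E18.5. No such time is stated for the wild-type embryos, so if the ages differed, age and genotype cannot be told apart. Which of them gave the 2 arrays is not stated. The sources do not state the strain of the wild-type embryos, the sex of any embryo or whether RNA was pooled. The submitters call the duplicates biological replicates.

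P450s are haem enzymes of the endoplasmic reticulum and mitochondria that insert oxygen into drugs, fatty acids, steroids and retinoids. GSTs join glutathione to reactive products, among them those the P450s make, and ALDHs oxidise aldehydes to acids, including steps in amino acid, folate and retinoid metabolism. Liver holds the highest levels of many P450s, while the lung has a smaller set in airway secretory cells, alveolar cells and vessels.

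Most members were dim on these arrays. As a guide to background, 27 control probe sets for Bacillus genes were read, of which the brightest reached 73.4. Whether Bacillus RNA was added to these samples is not stated. This guide is strict, since the median signal of all probe sets lay between 65.45 and 70.8 on the 4 arrays. At or below it on all 4 arrays were 80 of 119 member probe sets (67.2%), against 44.2% of all non-control probe sets. The families differed widely in this: 63 of 73 P450 probe sets (86.3%), 12 of 24 ALDH probe sets (50%) and 5 of 22 GST probe sets (22.7%) lay near background. By gene, 58 of 89 were read near background by their brightest probe set.

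**Figure D1:**
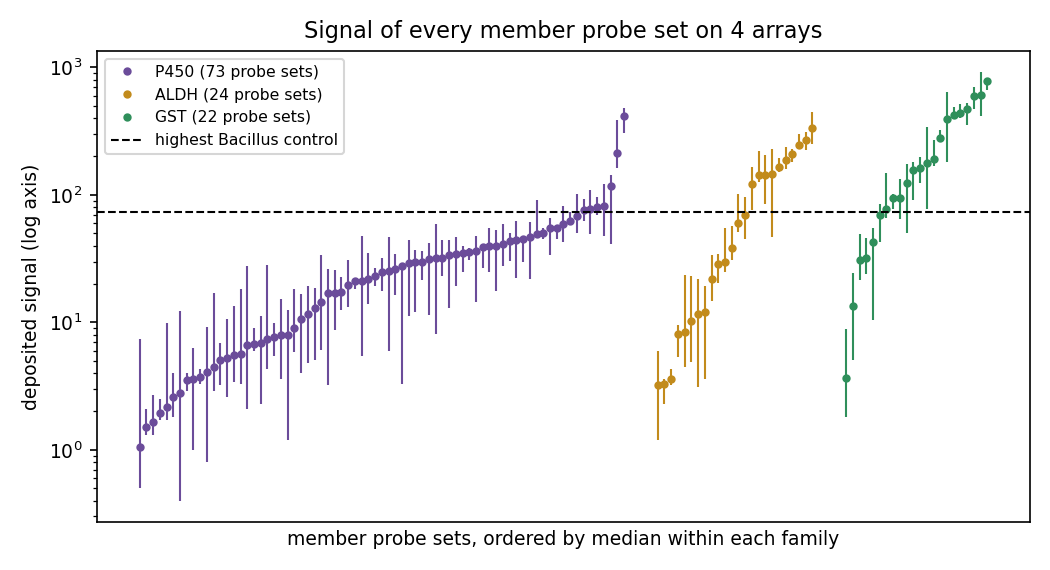
Deposited signal (vertical, log axis) of all 119 member probe sets, ordered by median within each family. Points are the median and lines the full range over the 4 arrays, and the dashed line is the highest Bacillus control signal of 73.4. Of the 73 P450 probe sets 2 stand above that line on all 4 arrays, against 9 of 24 for ALDH and 13 of 22 for GST.

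Only 2 P450 probe sets were above the guide on every array, those of Cyp2s1 and Cyp4b1. Outside the tests for low mean signal were 49 member genes, 43 of them P450s, 3 GSTs and 3 ALDHs, whose brightest probe sets read between 0.4 and 59.2. Among them were the drug-metabolising Cyp3a enzymes and Cyp7a1, the rate-limiting enzyme of bile acid synthesis, and nothing is said of their direction. Liver markers gave a similar picture: 12 of 13 measured liver genes lay near background, the exception being Alb, albumin, at 98.4 and 104.3 in wild type and 36.4 and 57.9 in the transgenic lungs.

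The label of the transgenic arrays was checked first on Mycn itself. The Mycn probe set with the highest mean read 34.7 and 32.1 in wild type and 455.2 and 356.0 with the transgene. Its log2 fold change was 3.46 ± 0.18, with the SE of a fit over probe sets, and the fit over genes gave a limma adjusted p of 7.3e-05. Another Mycn probe set had the opposite sign, going from 78.7 and 63.5 to 25.1 and 27.2 (-1.20 ± 0.27), and which part of the transcript each reads is not stated. Tissue identity was checked on markers: of 11 measured alveolar type II genes none lay near background. The groups also differed in sex-linked genes. Xist, transcribed from the inactive X chromosome of females, read 1707.8 and 1506.1 in wild type and 59.3 and 63.9 with the transgene, while Y-linked Kdm5d read 7.2 and 14.8 against 70.9 and 82.5, so sex and genotype cannot be told apart in any result here.

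Of the members, 40 genes were bright enough to test, on a log2(signal + 5) scale that understates changes of dim genes. In the transgenic lungs 5 were higher and 6 lower at a limma adjusted p under 0.05, and 29 did not pass. Of all 8675 genes tested 30.4% were called, with 14.7% of the tested genes higher and 15.7% lower, so the share of members called, 27.5%, lay near that of all genes. All 11 had a probe set above the guide on both arrays of at least 1 group, and of 9 tested members near background none passed. The counts describe which members moved and do not set these families apart from the rest of the array.

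By family, the directions were unequal. GSTs had 3 higher and 1 lower of 13 tested, ALDHs 2 higher and none lower of 10, and P450s none higher and 5 lower of 17. The median log2 fold change was 0.10 over GSTs, 0.05 over ALDHs and -0.38 over P450s, beside -0.02 over all genes tested. Of the 9 tested members near background, all but Aldh8a1 were P450s, so dim genes enter the P450 median far more than the others. Whether families differ was not tested. In bulk tissue, fewer cells of a type and less RNA per cell cannot be told apart.

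**Figure D2:**
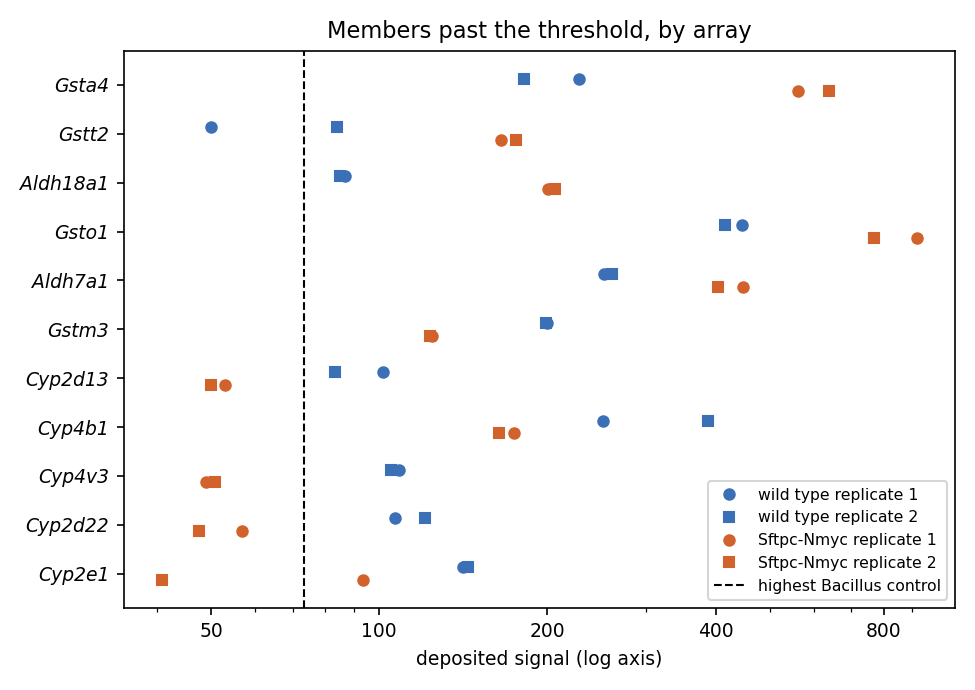
Deposited signal (horizontal, log axis) of the 11 members past the threshold on each array, blue for wild type and orange for Sftpc-Nmyc, circles for replicate 1 and squares for replicate 2. The dashed line is the highest Bacillus control signal, 73.4. The upper 5 genes are higher and the lower 6 genes lower in both transgenic arrays, and Cyp2d13, Cyp4v3 and Cyp2d22 lie left of the line in both transgenic arrays.

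The largest rise of the set was in Gsta4, an alpha-class transferase that clears 4-hydroxynonenal, a toxic product of lipid peroxidation. Its signal was 228.3 and 181.4 in wild type and 562.6 and 637.3 in the transgenic lungs. Both transgenic values were far above both wild-type values, with a log2 fold change of 1.51 ± 0.17 (SE, n = 2 per group; limma adjusted p = 0.00084), or 2.85-fold. Gsto1, the omega-class enzyme that reduces dehydroascorbate and mixed disulphides, went from 445.2 and 416.4 to 917.5 and 767.1. The groups did not overlap, and the change was 0.94 ± 0.14 (limma adjusted p = 0.0027). A second Gsto1 probe set stood at 1.29 ± 0.33 and also passed. It is an _x_at probe set, a suffix that in the naming of this array type marks probes that may also bind other sequences. Gstt2, of the theta class, was read at 50.1 and 84.2 in wild type, across the background guide, and at 165.0 and 176.1 in the transgenic lungs. The transgenic arrays were both higher, by 1.37 ± 0.26 on the log2 scale (limma adjusted p = 0.0066). The calls of Gsta4, Gsto1 and Gstt2 held under each of the 14 alternatives run, leaving out any array included.

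The other theta enzymes, whose genes lie beside Gstt2, did not pass. Gstt1, the brightest of the class, read 168.6 and 175.9 in wild type and 269.7 and 207.1 in the transgenic lungs (0.45 ± 0.18, limma adjusted p = 0.091). Gstt3 read 65.5 and 76.9 in wild type and 149.2 and 76.8 in the transgenic lungs (0.61 ± 0.30, limma adjusted p = 0.17). The groups did not overlap for Gstt1, while for Gstt3 transgenic replicate 2 lay within the wild-type range.

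The mu class is encoded by a row of genes on chromosome 3 and had 1 call among its 6 tested members. Gstm3 read 199.9 and 198.6 in wild type and 124.3 and 123.1 in the transgenic lungs, at -0.66 ± 0.16 on the log2 scale (limma adjusted p = 0.016). The replicates differed by little, yet the call ended when any array was left out (limma adjusted p = 0.0513 to 0.068, log2 fold change -0.68 to -0.65). This is also an _s_at probe set, whose probes match transcripts of more than 1 gene in the naming of this array type, and the other Gstm3 probe set read 1.8 to 8.8. The annotation gives it the symbol Gstm3 alone, and which other transcripts it reads is not stated. Signal of other transcripts therefore cannot be set apart from that of Gstm3.

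The brightest mu-class member, Gstm1, read 597.7 and 699.8 in wild type and 585.6 and 469.1 in the transgenic lungs, and did not pass (-0.32 ± 0.15, limma adjusted p = 0.15). Its 4 probe sets spanned log2 fold changes of -0.40 to 0.06, and none passed. The values given are of an _x_at probe set, so signal of other sequences cannot be set apart there. Those without the suffix stood at -0.28 ± 0.13 and 0.06 ± 0.33. Gstm2 (0.10 ± 0.14), Gstm5 (0.20 ± 0.15), Gstm4 (-0.05 ± 0.20) and Gstm7 (-0.42 ± 0.27) did not pass either. Gstp1, the pi-class enzyme and the brightest GST of all on average, read 740.9 and 821.0 in wild type against 664.0 and 809.7, with overlapping groups (-0.11 ± 0.15). Gstk1, the kappa-class enzyme of mitochondria and peroxisomes, read 478.6 and 525.8 against 463.1 and 352.3 (-0.33 ± 0.16, limma adjusted p = 0.17). The groups did not overlap for Gstk1, but its 2 transgenic arrays lay further apart than its groups' nearest values.

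**Figure D3:**
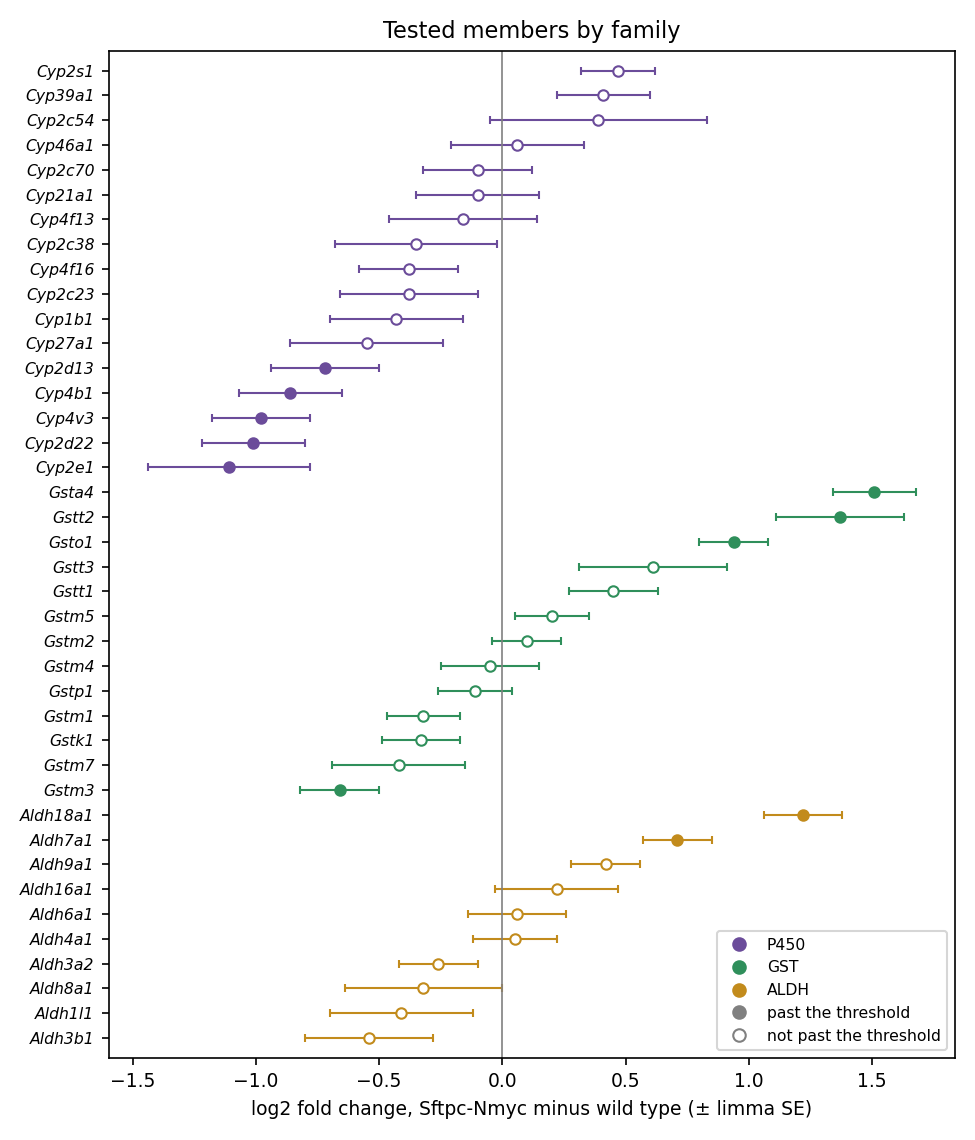
Log2 fold change, Sftpc-Nmyc minus wild type, of the 40 tested members (horizontal; points with limma standard errors, n = 2 arrays per group), coloured by family. Filled points passed an adjusted p of 0.05. Filled P450 points are all left of 0, filled ALDH points all right of 0, and the GSTs run from -0.66 for Gstm3 to 1.51 for Gsta4.

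Both ALDH calls fell in the group of amino acid and folate (1-carbon) enzymes, which held 7 of the 10 tested ALDHs. The share called in that group, 28.6%, lay near the 30.4% of all genes tested. Aldh18a1, which makes the proline precursor pyrroline-5-carboxylate from glutamate, read 86.7 and 85.0 in wild type and 200.5 and 206.8 in the transgenic lungs. The gap between groups was many times the spread within them, at 1.22 ± 0.16 on the log2 scale (limma adjusted p = 0.0017). Of its 5 probe sets 4 were bright enough to test and 3 passed, from 0.97 to 1.86, and the fourth stood at 0.39 ± 0.41. The passing probe sets at 1.22 and 1.86 are _x_at, so signal of other sequences cannot be set apart there. That at 0.97 ± 0.18 lacks the suffix. Aldh4a1, which runs the reverse direction by breaking down that same intermediate, read 227.3 and 179.6 against 219.8 and 201.1, with overlapping groups (0.05 ± 0.17).

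Aldh7a1, which acts in lysine breakdown, read 252.4 and 261.2 in wild type and 447.6 and 403.8 in the transgenic lungs (0.71 ± 0.14, limma adjusted p = 0.0080). Without wild-type replicate 1 the value was 0.69 at a limma adjusted p of 0.0514, and with the mean of its 3 probe sets it was 0.20 (limma adjusted p = 0.63). The other 2 Aldh7a1 probe sets read 3.2 to 33.8, below the guide throughout. Aldh9a1, of carnitine synthesis, read 229.9 and 226.8 against 305.5 and 310.2 and missed the threshold (0.42 ± 0.14, limma adjusted p = 0.059). Its other probe set stood at -0.08 for Aldh9a1, so the probe sets did not share a direction.

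None of the 3 tested aldehyde-detoxifying ALDHs passed. Aldh3a2, the fatty aldehyde dehydrogenase, was the brightest at 176.2 and 195.4 in wild type and 156.4 and 151.2 in the transgenic lungs (-0.26 ± 0.16, limma adjusted p = 0.26). Aldh3b1 stood at -0.54 ± 0.26 and Aldh16a1 at 0.22 ± 0.25. Of the folate and branched-chain enzymes, Aldh1l1 stood at -0.41 ± 0.29 and Aldh6a1 at 0.06 ± 0.20. Aldh8a1, outside those pathways and near background, stood at -0.32 ± 0.32. Other, untested probe sets, below the guide throughout, read 4.9 and 6.1 against 14.4 and 23.2 for Aldh1l1. For Aldh8a1 the other probe set read 8.7 and 3.1 against 14.4 and 21.7. All 3 probe sets of Aldh1a3, which makes retinoic acid, lay at 9.5 or below.

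All 5 P450s that passed were lower in the transgenic lungs. Cyp4b1, a P450 characteristic of lung that oxidises fatty acids and activates furan toxins, read 251.2 and 388.3 in wild type and 174.6 and 163.7 in the transgenic lungs. Its wild-type arrays were further apart than the transgenic ones but the groups did not overlap (-0.86 ± 0.21, limma adjusted p = 0.020). Without wild-type replicate 2 the value was -0.55 (limma adjusted p = 0.10), and without transgenic replicate 2 it was -0.81 (limma adjusted p = 0.079).

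Cyp4v3, a fatty acid hydroxylase related to human CYP4V2, read 108.4 and 105.2 in wild type and 48.9 and 50.8 in the transgenic lungs. Replicates lay close together, at -0.98 ± 0.20 on the log2 scale (limma adjusted p = 0.0092), and this P450 call held in all alternatives run that tested it. It rests on an _s_at probe set, so, as for Gstm3, signal of other transcripts that share its probes cannot be set apart. The other Cyp4v3 probe set, without that suffix and below the guide, read 56.0 and 62.1 against 22.2 and 31.8 and did not pass, at -0.92 ± 0.29 (limma adjusted p = 0.0527 over probe sets). Cyp4f16, another member of the fatty acid group, read 93.5 and 84.9 against 62.1 and 67.8 and did not pass (-0.38 ± 0.20, limma adjusted p = 0.19).

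Cyp2e1, which oxidises ethanol and small solvents, read 141.1 and 144.4 in wild type and 93.5 and 40.8 in the transgenic lungs. The transgenic arrays differed from each other by more than transgenic replicate 1 differed from wild type. Its log2 fold change was -1.11 ± 0.33 (limma adjusted p = 0.038), and it was -0.56 (limma adjusted p = 0.12) without transgenic replicate 2. Leaving out either wild-type array also ended the call (-1.14 and -1.09, limma adjusted p = 0.15 and 0.16).

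Of the Cyp2d enzymes, which oxidise many drugs, 2 of 7 genes on chromosome 15 were bright enough to test. Cyp2d22 read 106.6 and 120.7 in wild type and 56.8 and 47.5 in the transgenic lungs, at -1.01 ± 0.21 on the log2 scale (limma adjusted p = 0.010). Its call ended without transgenic replicate 2 (-0.87, limma adjusted p = 0.0515) and without wild-type replicate 2 (-0.91, limma adjusted p = 0.070), and a second Cyp2d22 probe set stood at -0.60 ± 0.24. Cyp2d13 read 101.5 and 83.3 against 52.9 and 50 (-0.72 ± 0.22, limma adjusted p = 0.040). The other Cyp2d13 probe set read 1.3 to 2.1, far below the guide, and was not tested. The Cyp2d13 call ended whichever array was left out (log2 fold change -0.85 to -0.60). It also ended with no filter on dim genes (limma adjusted p = 0.09) and with the replicate number as a block (limma adjusted p = 0.058).

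For 3 of these falls the transgenic signal was at or below the Bacillus guide on both arrays, so the size is only bounded there. Set against the guide, wild type was at least 1.55-fold higher for Cyp2d22, at least 1.45-fold for Cyp4v3 and at least 1.25-fold for Cyp2d13. These bounds use the geometric mean of the wild-type signals over 73.4. Without wild-type replicate 2 or without transgenic replicate 2, 1 P450 passed in place of 5, and without wild-type replicate 1, 3 passed. Cyp4v3 was the sole P450 whose call was kept in each of these fits.

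Among P450s that did not pass, Cyp2s1 was the brightest of the set and had the opposite sign. This dioxin-inducible P450 of epithelia read 366.9 and 304.2 in wild type and 479.1 and 457.9 in the transgenic lungs. The groups did not overlap, and the log2 fold change of 0.47 ± 0.15 missed the threshold narrowly (limma adjusted p = 0.0501). It passed under 5 alternatives, at a limma adjusted p of 0.026 to 0.0484, and the range over all 14 was 0.026 to 0.23. Cyp39a1, which hydroxylates oxysterols, read 72.0 and 69.1 against 88.9 and 95.4 (0.41 ± 0.19, limma adjusted p = 0.15). It was the sole sterol or steroid P450 above the guide on any array, and was so in the transgenic arrays only. Cyp1b1 (-0.43 ± 0.27), Cyp27a1 (-0.55 ± 0.31) and Cyp2c23 (-0.38 ± 0.28) were tested near background and did not pass.

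Retinoic acid breakdown was represented by Cyp26a1, which read 8.1 and 54.8 in wild type and 8.7 and 59.2 in the transgenic lungs. Replicate 2 was the higher array in both groups, all 4 values lay below the guide, and the gene was not tested.

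Many members sit in gene clusters. With starts within 200 kb of the next member, 54 of 89 genes fell into 17 clusters in the RefSeq gene table of GRCm38.p6. In the mu cluster of 7 genes, 1 was lower and 5 did not pass. In the theta cluster of 3, 1 was higher and 2 did not pass. In the Cyp2d cluster of 7 both tested genes were lower. Most other clusters had no more than 1 tested member, so outcomes within them could not be compared. Gsta2, the neighbour of Gsta4, read 33.5 and 10.5 in wild type and 52.1 and 55.3 in the transgenic lungs, below the guide on all arrays and untested. Cyp4b1 lies near Cyp4a14 and Cyp4a31, both near background, and Cyp2s1 near 3 dim Cyp2b genes.

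Promoter sequences were examined because MYC proteins, NRF2 and the aryl hydrocarbon receptor bind known short motifs and the last 2 are classical regulators of these families. RefSeq promoters of GRCm38.p6 were matched for 68 of 89 members, 31 of the 40 tested and 6 of the 11 that passed. Of those that passed, Gsta4, Gstt2, Aldh7a1, Cyp2d22 and Cyp2d13 had no promoter entry and were not searched. The 250 bases before each start were searched on both strands for CACGTG (the MYC E-box), TGACNNNGC (the core of the NRF2 antioxidant response element) and GCGTG (the core of the xenobiotic response element). A gene was counted when any of its promoters held the motif. The E-box stood in 3 of 31 tested members (9.7%), against 10.2% of all genes tested and 6.9% of all genes with a promoter. The NRF2 core stood in 3 (9.7%, against 13.6% and 11.5%) and GCGTG in 11 (35.5%, against 50.5% and 30.9%). A match is a run of letters and no measure of binding.

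The 3 tested members with an E-box are shown because they moved in different ways: Aldh18a1 rose, Cyp4v3 fell and Aldh3a2 did not pass. Capitals mark the E-box, 59, 171 and 30 bases before the start, and each sequence runs 5′ to 3′ on the minus strand, the strand of the gene. They lie at chr19:40588492-40588547, chr8:45333304-45333359 and chr11:61267187-61267241.
Aldh18a1: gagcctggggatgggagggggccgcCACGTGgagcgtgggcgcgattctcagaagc
Cyp4v3: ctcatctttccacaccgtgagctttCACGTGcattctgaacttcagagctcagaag
Aldh3a2: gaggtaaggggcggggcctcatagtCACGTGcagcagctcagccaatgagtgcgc

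In Aldh18a1 a GCGTG lies 51 bases before the start, just after the E-box. Among tested members with a promoter to search, the NRF2 core was found in Gstm5, Gstm7 and Aldh9a1, none of which passed. Only 2 members called higher had such a promoter. With 3 genes, beside 30.4% called of all genes tested, nothing is read from this. The mu-class pair is shown for comparison of neighbouring genes, with the core in capitals 42 and 129 bases before the start, at chr3:107895787-107895845 (plus strand) and chr3:107931710-107931768 (minus strand). In Gstm5 the core overlaps a GCGTG on the other strand, 38 bases before the start.
Gstm5: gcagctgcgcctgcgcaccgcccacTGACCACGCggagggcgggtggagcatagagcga
Gstm7: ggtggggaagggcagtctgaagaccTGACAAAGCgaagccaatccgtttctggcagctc

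Genes that work with these families were taken from 8 lists. The share of tested genes called ran from 9.1% to 42.9% over the lists, beside 30.4% of all genes, and nothing is read from a list's share alone. Other detoxifying enzymes had 12 lower and none higher of 31 tested, with a median of -0.47 beside -0.02 over all genes. Under 2 alternatives, centring on the median and every probe set as its own row, 1 was higher. Pon1, the paraoxonase, read 509.9 and 471.3 in wild type and 42.3 and 27.3 in the transgenic lungs, the largest fall of the lists (-3.63 ± 0.23, limma adjusted p = 0.00011), at least 6.68-fold against the guide. Adh1, an alcohol dehydrogenase that also oxidises retinol, fell from 3671.7 and 3740.9 to 1262.9 and 1437.8 (-1.66 ± 0.11). Fmo2, the flavin monooxygenase of lung, fell from 829.9 and 993.0 to 394.4 and 258.5 (-1.52 ± 0.20), and the aldehyde oxidase Aox3 fell from 109.1 and 139.5 to 19.5 and 31.2, at least 1.68-fold against the guide (-2.04 ± 0.27 on the measured values). The calls of Pon1, Adh1, Fmo2 and Aox3 held under the alternatives run for them.

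Aldh2, the mitochondrial aldehyde dehydrogenase outside the symbol rule, read 1543.6 and 1535.3 in wild type and 908.1 and 855.6 in the transgenic lungs (-0.82 ± 0.11, limma adjusted p = 0.0019). With the mean of its probe sets the value was -0.19 (limma adjusted p = 0.44). Adh5 and Cbr1, which went against the list, stood at 0.38 ± 0.13 and 0.44 ± 0.19 and did not pass.

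**Figure D4:**
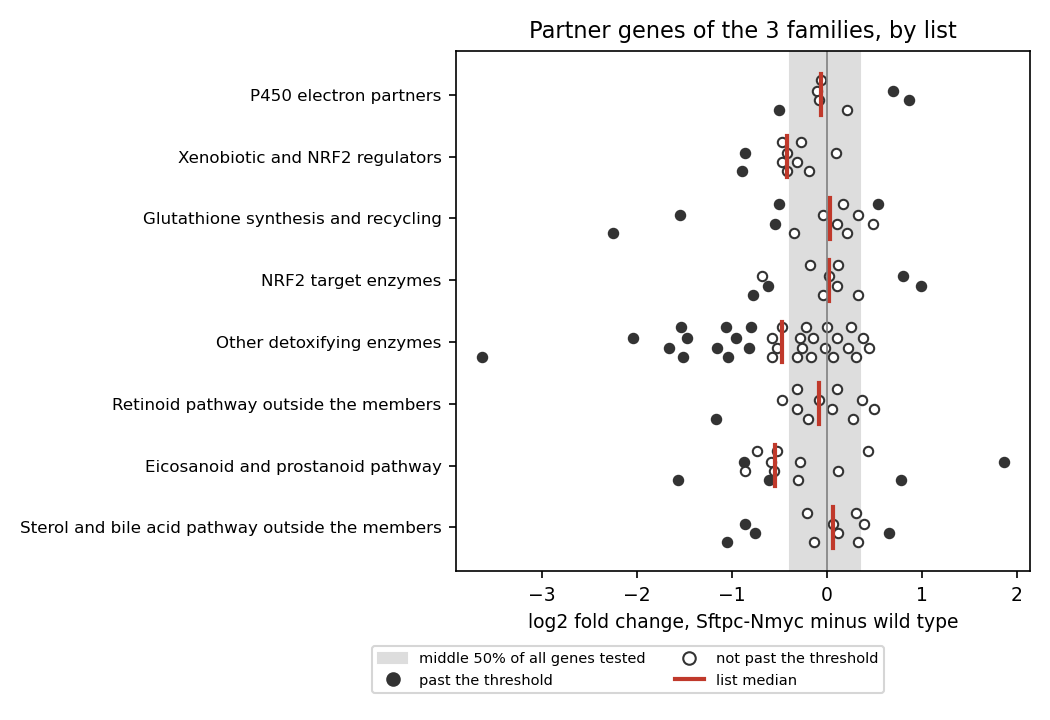
Log2 fold change, Sftpc-Nmyc minus wild type, of each tested gene (points) in 8 lists of partner genes, filled where the adjusted p was under 0.05, with the list median as a red bar. Vertical offsets within a row carry no meaning. The grey band is the middle 50% of all genes tested, -0.39 to 0.35, and the points of the other detoxifying enzymes reach furthest left, to -3.63 for Pon1.

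Electron partners of P450s had 2 higher and 1 lower of 7 tested, and 7 of the 9 listed were measured. Fdx1, the ferredoxin of mitochondrial P450s, rose from 859.0 and 952.3 to 1544.1 and 1443.3 (0.69 ± 0.12, limma adjusted p = 0.0042), and Cyb5r1 rose by 0.86 ± 0.17. Cyb5r3, a cytochrome b5 reductase, was lower at -0.51 ± 0.11, and leaving out either wild-type array ended this (-0.50 and -0.53, limma adjusted p = 0.071 and 0.066). Pgrmc1 stood at 0.21 ± 0.12 without passing.

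The regulators had none higher and 2 lower of 10 tested, a smaller share than that of all genes. Ahr, the receptor that induces Cyp1 genes, read 652.2 and 547.6 in wild type and 357.9 and 290.9 in the transgenic lungs (-0.90 ± 0.17, limma adjusted p = 0.0060). Without wild-type replicate 1 it stood at -0.76 (limma adjusted p = 0.055). Cyp1a1, its best-known target, named outside the rule, read 29.3 and 30.2 against 36.9 and 12.0, all near background. Nr1h3, a sterol-sensing receptor, read 112.0 and 123.2 against 63.7 and 57.5, lower by at least 1.60-fold against the guide. Its measured values gave -0.86 ± 0.20, a call which ended without transgenic replicate 2 (-0.77, limma adjusted p = 0.066) or wild-type replicate 2 (-0.79, limma adjusted p = 0.077). The NRF2 gene Nfe2l2, named outside the rule, read 840.4 and 778.3 against 768.9 and 491.7 and did not pass (-0.42 ± 0.20, limma adjusted p = 0.15), nor did Bach1 (-0.47 ± 0.19), Rxra (-0.47 ± 0.19) or Keap1 (0.09 ± 0.16).

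Enzymes that NRF2 is known to induce went both ways, with 2 higher and 2 lower of 11 tested. The list held 16 genes, of which 13 were measured, so part of it is not seen here. Txnrd1, thioredoxin reductase, rose from 251.8 and 236.9 to 485.5 and 497.5 (0.99 ± 0.14, limma adjusted p = 0.0020), and Fth1, the ferritin heavy chain, fell by 0.78 ± 0.09. Neither call depended on a single array. Me1 (-0.62 ± 0.15) was lower and Abcc1 (0.80 ± 0.25) higher, but Me1 did not pass without transgenic replicate 2 or either wild-type array (limma adjusted p = 0.074 to 0.080, -0.63 to -0.55). Abcc1 did not pass without either transgenic array or wild-type replicate 1 (limma adjusted p = 0.082 to 0.20, 0.49 to 0.93).

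In glutathione synthesis and recycling 1 gene was higher and 4 lower of 12 tested. Glrx, glutaredoxin, fell from 205.9 and 218.4 to 47.3 and 33.0 (-2.25 ± 0.22, limma adjusted p = 0.00064), at least 2.89-fold against the guide, and this call held under the alternatives run. Gsr, glutathione reductase, was higher at 0.54 ± 0.15, and leaving out any array ended that call (0.45 to 0.64, limma adjusted p = 0.058 to 0.15). The glutathione-synthesising subunits did not pass, with Gclc at 0.33 ± 0.16 and Gclm at -0.04 ± 0.16, both named outside the rule. The peroxidases Gpx3 (-1.55 ± 0.34), Gpx4 (-0.51 ± 0.12) and Gpx1 (-0.55 ± 0.15) were lower. Each lost its call without wild-type replicate 2, at -1.33, -0.46 and -0.37 (limma adjusted p = 0.11, 0.10 and 0.18). Gpx3 also lost it without wild-type replicate 1 (-1.77, limma adjusted p = 0.0519), Gpx4 without that array (-0.55, 0.066) or transgenic replicate 2 (-0.42, 0.076), and Gpx1 without transgenic replicate 2 (-0.43, 0.13). With the arrays centred on their medians, or with no filter or no trend, 2 of this list were lower.

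Of the eicosanoid pathway 2 were higher and 3 lower of 14 tested. Ptgis, prostacyclin synthase, itself a P450 by sequence whose symbol lacks the family form, fell from 224.0 and 239.4 to 83.8 and 64.2 (-1.57 ± 0.19, limma adjusted p = 0.0012) and held under the alternatives run. Ptges2 was higher, from 17.9 and 30 to 109.4 and 78.6, at least 1.26-fold against the guide because both wild-type values lay below it. Its measured values gave 1.86 ± 0.33, and without transgenic replicate 1 stood at 1.63 (limma adjusted p = 0.0516). Alox5ap was lower at -0.87 ± 0.17, and without wild-type replicate 2 stood at -0.73 (limma adjusted p = 0.062). Pla2g4a, the cytosolic phospholipase, read 70.8 and 70.5, below the guide, against 112.8 and 128.9, higher by at least 1.64-fold. Its measured values gave 0.78 ± 0.19, but it did not pass without transgenic replicate 2 (0.69, limma adjusted p = 0.11) or either wild-type array (0.76 and 0.79, limma adjusted p = 0.060 and 0.061).

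The sterol list had 1 higher and 3 lower of 11, Nr1h3 being counted here too. Hsd11b1, which regenerates active glucocorticoid, was lower at -1.05 ± 0.21 (-0.89 and limma adjusted p = 0.080 without wild-type replicate 2). Hsd3b7 was lower at -0.76 ± 0.17, a call lost without transgenic replicate 2 (-0.66, limma adjusted p = 0.066) or wild-type replicate 2 (-0.67, limma adjusted p = 0.077). Sqle was higher at 0.65 ± 0.19, and was not called without transgenic replicate 2 or either wild-type array (0.42 to 0.73, limma adjusted p = 0.10 to 0.20). Retinoid genes were mostly flat in calls, with 1 lower of 11, Rarres2 (chemerin), which fell by 1.17 ± 0.17, while Rbp4 (0.50 ± 0.24), Rai1 (0.27 ± 0.15) and Rarg (-0.32 ± 0.15) did not pass.

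Markers of several cell types, among them cells outside the lung proper, differed between the same arrays. Summed signals of 11 alveolar type II genes were 40118.3 and 47691.4 in wild type and 11374.9 and 8905.0 in the transgenic lungs, with 11 of 11 lower. Endothelial genes summed to 6968.7 and 7883.5 against 2734.5 and 2644.5, with 10 of 10 lower. The 9 measured club cell genes summed to 21447.0 and 20253.3 against 16143.1 and 11117.6, with 2 higher and 4 lower of 8 tested, and Gsta3 was near background. Alveolar type I genes were lower in 8 of 8. Hopx among them lost its call with arrays centred on their medians (-0.27, limma adjusted p = 0.31). It also did so with no quantile normalization (-0.34, limma adjusted p = 0.18). Cardiac muscle genes summed to 2893.3 and 1789.5 in wild type and 308.8 and 557.7 in the transgenic lungs, with 6 of 6 tested lower. Erythroid genes summed to 2330.3 and 2159.8 against 435.2 and 434.0, with 2 of 2 tested lower. Most of that sum was Alas2, at 2136.8 and 1832.4 against 367.4 and 367.9, while Hba-a1 and Epb42 were near background. Fibroblast genes were lower in 8 of 10 and macrophage genes in 5 of 8. Pan-epithelial genes summed to 6680.9 and 7220.8 in wild type and to more, 9678.3 and 9308.1, in the transgenic lungs, with 4 of 11 higher. Some alternatives ended the calls of the club cell genes Scgb1a1, Scgb3a1, Scgb3a2, Cldn10 and Krt15. The same was true of Vegfa, Dcn, Tcf21, C1qc and Cldn7 in the other lists. The part of these shifts in cell markers in the rises and falls of the enzymes was not tested.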

How the data were processed

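Total RNA of whole lungs (RNeasy) was biotin-labelled for Affymetrix arrays, per the labels. Each deposited value is a linear intensity of a probe set, and how the authors computed it is not given in the sources used here. Of 22690 probe sets 64 were controls, 20380 had 1 symbol, 691 several and 1555 none in the platform annotation. All 119 member probe sets matched the RefSeq gene table by gene identifier and symbol.

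Signals under 1 were set to 1, 5 was added, and the log2 values of non-control probe sets were quantile normalized. The probe set with the highest mean stood for each of 12393 genes, and 8675 genes at or above the 30th percentile were tested. limma 3.58.1 in R 4.3.3 (lmFit, eBayes with trend) compared the groups, with Benjamini-Hochberg adjustment over all genes tested. Errors are limma standard errors. Probe sets of 1 gene were compared in the same fit over all probe sets. The code was tested on simulated data. Members, lists and the rule for named genes were chosen with earlier results of these data known. The 14 alternatives changed the offset, scaling, filter, variance trend, probe set summary and replicate block, or left out an array. The rule gave full values to members past the threshold and above the guide, and to the brightest member of each class; of each list it named up to 4 genes by statistic and up to 2 against the median. No set test was run. The number of arrays limits precision.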

Additional observations from a re-analysis of the deposited data

How the results depend on the processing

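Members called higher (5) ranged from 4 to 6 when 1 array was left out, and from 5 to 7 under the other alternatives. Members called lower (6) ranged from 1 to 4 when 1 array was left out, and were 3 with no filter on dim genes and 3 with genes below the 50th percentile left out. Genes called over the whole table (2636) ranged from 1396 to 1917 when 1 array was left out. Gsta4, Gsto1, Gstt2, Aldh18a1 and Cyp4v3 passed under each alternative that tested them, while the calls of Aldh7a1, Cyp2d13, Cyp2d22, Cyp2e1, Cyp4b1 and Gstm3 were each lost under at least 2. For Cyp2e1 these included no trend in the variance (limma adjusted p = 0.066) and no filter (0.11), and for Cyp4b1 no filter (0.053). With the mean of all probe sets Gstm3 stood at -0.21 (limma adjusted p = 0.63). Gstp1, not called, ranged from -0.26 to 0.04 when 1 array was left out, turning positive without Sftpc-Nmyc replicate 1. Member probe sets near background (80) were 41 with the guide at the 30th percentile of all signals (34.5%, against 21.6% of all non-control probe sets). They were 15 with the guide at the median Bacillus control (12.6%, against 8.2%). The titles give both groups the same replicate numbers, but their deviations did not go together (r = -0.043 across 8675 genes). With 2 arrays per group this cannot settle whether same-numbered arrays were handled together, and the main fit did not pair them. With the replicate block 5 members were higher, 5 lower and 2218 genes were called, and among members only Cyp2d13 lost its call. With 1 array left in a group, its spread is assumed to equal that of the other group. No alternative moved the median of all genes by over 0.1.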

Other observations

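The 5 family genes left out of the set were not called where tested. Cyp2f2, the abundant P450 of club cells, read 2071.5 and 1531.1 in wild type and 1855.7 and 1402.9 in the transgenic lungs, above every member. Aldh1a7 read 971.0 and 665.8 against 1045.9 and 2132.1 (0.86 ± 0.32, limma adjusted p = 0.077), with transgenic replicate 2 far above the rest. Aldh1a1 read 506.0 and 361.6 against 502.5 and 256.4 with overlapping groups, and Aldh1a2 read 70.0 and 127.4 against 31.5 and 63.8 (-0.91 ± 0.37, limma adjusted p = 0.10). Gsta3 read 13.6 to 29.2.

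Probe sets that name several genes of these families are not members. The probe set shared by Gm3776, Gsta1 and Gsta2 read 21.0 and 27.0 against 21.6 and 33.4. That of Cyp4f37 and Cyp4f16 read 82.9 and 83.6 against 75.1 and 55.1.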
